A study of Homo sapiens with 5 samples.

Results

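Cholesterol and fatty acid synthesis was examined through 37 genes chosen by name for their place in the pathway. They comprised 18 enzymes that build cholesterol, 5 genes that control the pathway (INSIG1, INSIG2, SREBF1, SREBF2 and SCAP), 2 that move cholesterol inside the cell (STARD4 and NPC1), 7 enzymes of fatty acid synthesis and desaturation, and 5 genes of the liver X receptor (LXR) and cholesterol efflux arm (ABCA1, ABCG1, NR1H2, NR1H3 and MYLIP). All 37 were found among the 64837 entries counted, and all 37 passed the filter on low counts that left 20360 genes for testing. The control group was untreated NCI-H209 (n = 3), a line of human small-cell lung cancer (SCLC) grown in RPMI-1640 with 10% fetal bovine serum. The co-cultured group was the same line after 24 h with human brain microvascular endothelial cells (HBMECs) across a Transwell membrane (n = 2), and only the tumor cells were taken for RNA. Both groups come from 1 cell line, and whether the control wells held an insert without HBMECs is not given in the sources used here. Both groups are listed with 10% fetal bovine serum. The study grew HBMECs with 10% Nu-serum as well, and whether any was present during co-culture is not stated. The labels do not say whether replicates were separate cultures, so that p-values measure the spread between these libraries, which may be technical.

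Cholesterol is built from acetyl-CoA through the mevalonate pathway, and fatty acids are built from the same precursor. When membrane sterol is low, SCAP carries the SREBP transcription factors from the endoplasmic reticulum to the Golgi, where proteases release the active part, and the INSIG proteins hold SCAP back when sterol is plentiful. The product of SREBF2 acts mainly on sterol genes and that of SREBF1 mainly on fatty acid genes. Oxysterols activate the LXRs, encoded by NR1H2 and NR1H3, which in turn drive efflux transporters and SREBF1.

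Counts assigned to genes were 17317045 to 19157348 per control library against 18918787 and 15457071 after co-culture, and 3 counts corresponded to between 0.154 and 0.198 CPM, the count of a gene relative to the scaled total of its library. Reads that did not map took 8.13% to 8.48% of reads in controls against 16.8% and 15.9% after co-culture, and reads that overlapped no gene on this strand took 47.3% to 51.2% against 40.1% and 40.8%. Both differences moved with the group, and their part in the results was not tested. On the first 2 principal components the groups separated along the first (64.7% of the variance), whereas control replicate 1 stood apart from the other controls on the second (18.3%). The label of the line was checked against 12 neuroendocrine markers of SCLC, of which 11 could be tested. The summed level of all 12 was 2321 to 2981 CPM in the control and 3084 to 3252 CPM in the co-cultured libraries, and 4 were higher and 1 was lower after co-culture, while CHGA had 0 or 1 count in each library. Of 21 endothelial markers, 9 passed the filter, and PECAM1 and CDH5 were under 1 CPM in every library. VWF was higher, with 8.5, 4.1 and 4.5 CPM in controls against 4.8 and 5.9 CPM after co-culture. ERG had 3.7, 3.5 and 2.8 CPM in controls against 2.8 and 2.7 CPM after co-culture. The summed level of all 21 was 10.4 to 21.7 CPM in the control and 13.8 to 14.1 CPM in the co-cultured libraries. At an adjusted p under 0.05 the only one of them called was ESAM, an endothelial adhesion molecule, with 3, 4 and 6 counts in controls against 21 and 14 after co-culture. FLT1, an endothelial growth factor receptor, had 30, 28 and 0 counts in controls against 1 and 1 after co-culture, with an edgeR adjusted p of 0.0683 and an unadjusted p of 0.0254. KDR and TEK were also low in control replicate 3 alone among the controls, and neither was called. KDR had 37, 27 and 2 counts in controls against 12 and 4, and TEK had 31, 24 and 0 against 6 and 3. In such bulk samples, fewer cells of a type and less RNA per cell cannot be told apart.

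The start regions of 7 members are shown: SCD, INSIG2, FADS2 and STARD4, the members that rose most, NR1H3, the called member that fell most, and INSIG1 and HMGCS1, standard sterol-regulated genes that were not called. Where RefSeq gives several starts (4 for NR1H3 and 2 each for FADS2, INSIG2 and HMGCS1), the first listed is used. Each run holds the 250 bases before the RefSeq start on the gene's own strand, written from 5′ to 3′ (GRCh38.p14). Capitals mark CCAAT or its complement ATTGG, a box bound by NF-Y, which works beside SREBPs. They also mark ACGTG or its complement CACGT, a form of the core of the hypoxia response element. Other forms of that core were not searched for. The windows lie at chr10:100346983-100347232 (plus strand) for SCD, chr2:118088221-118088470 (plus strand) for INSIG2, chr11:61815953-61816202 (plus strand) for FADS2, chr5:111512536-111512785 (minus strand) for STARD4, chr11:47248050-47248299 (plus strand) for NR1H3, chr7:155297628-155297877 (plus strand) for INSIG1 and chr5:43313413-43313662 (minus strand) for HMGCS1.
SCD: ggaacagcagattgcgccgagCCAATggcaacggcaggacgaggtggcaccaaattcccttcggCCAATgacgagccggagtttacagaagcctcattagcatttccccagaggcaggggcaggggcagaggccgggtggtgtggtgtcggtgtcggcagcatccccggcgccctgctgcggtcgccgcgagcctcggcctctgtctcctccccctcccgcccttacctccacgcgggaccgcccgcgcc
INSIG2: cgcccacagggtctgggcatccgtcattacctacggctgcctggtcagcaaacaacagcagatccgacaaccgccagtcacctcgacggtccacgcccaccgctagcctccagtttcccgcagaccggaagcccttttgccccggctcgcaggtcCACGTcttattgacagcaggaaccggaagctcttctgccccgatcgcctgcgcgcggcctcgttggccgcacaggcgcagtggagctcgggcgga
FADS2: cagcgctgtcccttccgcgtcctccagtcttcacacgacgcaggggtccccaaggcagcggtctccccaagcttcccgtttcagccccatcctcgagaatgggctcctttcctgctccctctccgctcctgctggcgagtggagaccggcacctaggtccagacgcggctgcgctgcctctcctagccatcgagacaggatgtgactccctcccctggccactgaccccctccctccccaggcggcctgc
STARD4: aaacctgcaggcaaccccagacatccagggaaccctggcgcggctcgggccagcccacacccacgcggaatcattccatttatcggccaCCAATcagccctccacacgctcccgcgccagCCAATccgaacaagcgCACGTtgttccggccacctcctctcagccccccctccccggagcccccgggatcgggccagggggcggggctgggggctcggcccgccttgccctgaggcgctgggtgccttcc
NR1H3: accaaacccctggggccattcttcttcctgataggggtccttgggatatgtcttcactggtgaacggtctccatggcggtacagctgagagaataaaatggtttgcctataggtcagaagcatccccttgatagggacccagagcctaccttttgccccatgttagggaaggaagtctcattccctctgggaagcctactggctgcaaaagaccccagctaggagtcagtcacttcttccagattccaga
INSIG1: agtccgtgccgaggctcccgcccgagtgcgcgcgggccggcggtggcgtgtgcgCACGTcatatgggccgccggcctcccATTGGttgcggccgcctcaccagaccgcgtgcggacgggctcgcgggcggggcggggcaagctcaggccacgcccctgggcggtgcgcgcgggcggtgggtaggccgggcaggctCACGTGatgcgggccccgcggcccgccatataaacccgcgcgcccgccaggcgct
HMGCS1: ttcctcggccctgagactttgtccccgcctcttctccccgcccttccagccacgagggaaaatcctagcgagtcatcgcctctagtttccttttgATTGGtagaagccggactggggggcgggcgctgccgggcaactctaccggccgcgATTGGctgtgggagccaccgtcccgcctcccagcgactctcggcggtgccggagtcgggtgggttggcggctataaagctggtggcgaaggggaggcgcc

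Windows of 300 bases, from 250 before to 50 after the start, were given by RefSeq for 32 of the 37 members, and these 32 had 45 windows in all. CCAAT, on either strand, was in 26 of the 45 windows and in 34.6% of all 35116 windows of the same length. Among members it was in 5 of the 11 that rose and had a window, in 2 of the 3 that fell and in 15 of the 18 that were not called. ACGTG was in 13 member windows and in 21.4% of all windows, and CACGTG, the E-box, which holds ACGTG on both strands, was in 6 member windows and in 7.26% of all. In the sequences shown, INSIG1 holds CACGTG and a further CACGT outside it, INSIG2 and STARD4 each hold 1 CACGT outside an E-box, and FADS2 and NR1H3 hold no match to CCAAT or ACGTG, although each has CCAAT in another of its windows. The sterol regulatory element TCACNCCAC was in 1.13% of all windows and in 1 member window, that of SREBF2, and the direct repeat bound by LXRs (AGGTCA, any 4 bases and AGGTCA again) was in 7 windows and in no member window. These matches describe the letters in a window and are not evidence of binding.

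After co-culture, 13 of the 37 members were higher, 3 were lower and 21 were not called at an edgeR adjusted p under 0.05. Among all 20360 genes tested, 33.4% were called, 18.4% as higher and 15.0% as lower, against 43.2% of the members. With upper-quartile scaling, which shifted the median log2 fold change of the shared genes by -0.078, the calls over all genes turned from 3750 higher and 3059 lower to 3076 higher and 3929 lower, while the members stayed at 13 higher and 3 lower. The median log2 fold change was 0.17 over the members and -0.03 over all genes. By the study's criterion (its fold change past 1 in either direction, read here as log2, with an unadjusted p under 0.05), 2 members, INSIG2 and SCD, were up and none was down, whereas 5.44% of all genes were up and 5.01% were down. The co-cultured and control libraries did not overlap for 16 members that were higher and 4 that were lower, whereas over all genes this held for 59.4%, with 29.4% higher and 30.0% lower. The counts of calls rested in part on single libraries: without co-cultured replicate 1 there were 6 higher and 1 lower, without co-cultured replicate 2 there were 9 and 2, and without control replicate 1 there were 19 and 4. Under 12 other settings (5 that left out 1 library and 7 other changes of test, scaling, filter, block or strand), 7 members kept their call: SCD, FADS1, FADS2, INSIG2, SREBF1 and STARD4 as higher and NR1H3 as lower.

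**Figure D1:**
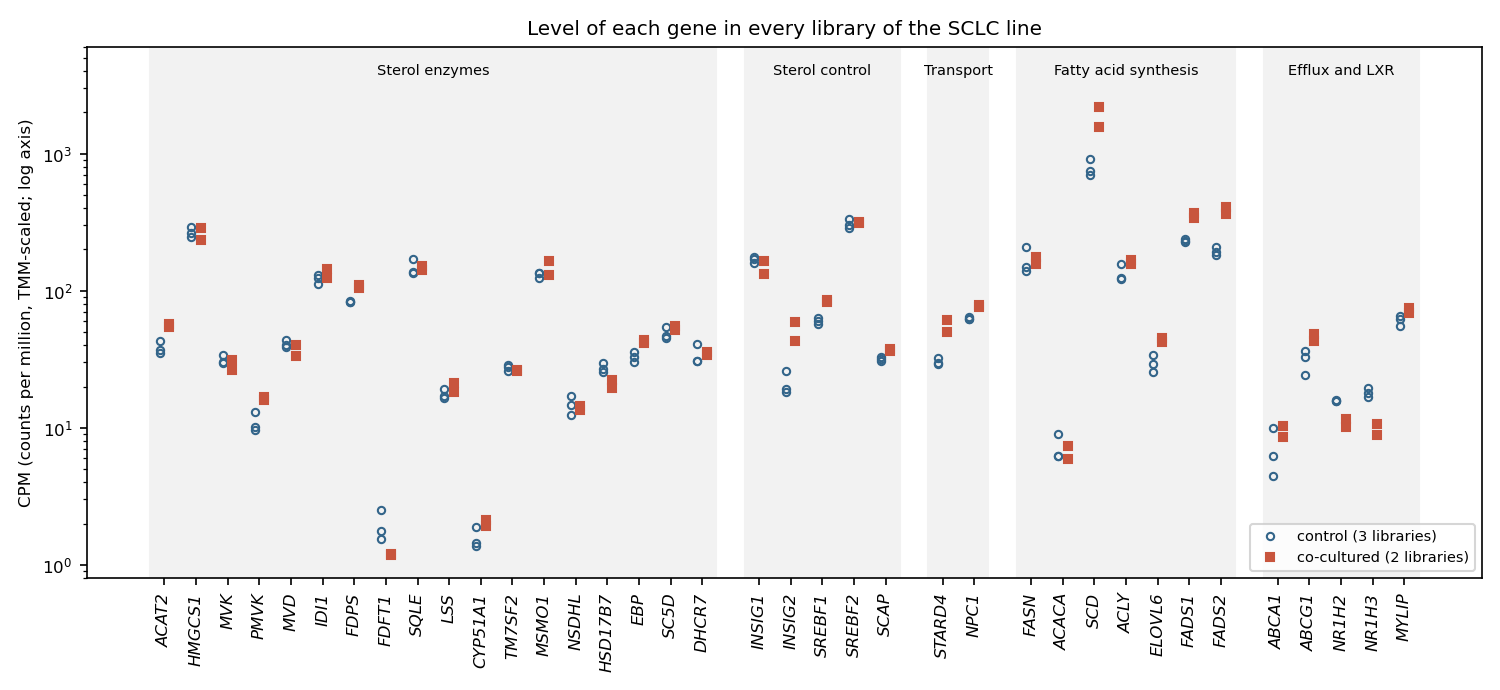
Level of each of the 37 members in each library in CPM on a log axis, ordered by arm, with 1 point for each library. SCD lies at 696 to 919 CPM in the 3 control libraries and at 1554 and 2196 CPM in the 2 co-cultured libraries, while most enzymes of cholesterol synthesis overlap between the groups.

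Of the 7 enzymes of the fatty acid arm, 4 rose (SCD, FADS2, FADS1 and ELOVL6) and none fell, where 18.4% of all genes tested were higher and 15.0% lower. The median log2 fold change was 0.56. The 4 that rose change the length or the saturation of a fatty acid, whereas the 3 that were not called (FASN, ACACA and ACLY) make the chain from citrate and acetyl-CoA.

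SCD, the stearoyl-CoA desaturase that makes monounsaturated fatty acids, had 696, 751.5 and 918.5 CPM in controls against 2196 and 1554 CPM after co-culture. The lower co-cultured library lay well above the highest control library. Its level rose by 1.25 on the log2 scale (SE 0.157), a 2.38-fold increase, with an edgeR adjusted p of 0.000509. SCD took 0.0683% to 0.0938% of the gene counts in controls against 0.212% and 0.152% after co-culture, which moved its rank by count among all entries from 96, 72 and 56 to 9 and 15. Divided by exon length it was also the most abundant member, with a mean of 147 CPM per kilobase in the control and 350 CPM per kilobase in the co-cultured group. The next most abundant member per length was HMGCS1, with 56.5 and 55.3 CPM per kilobase.

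FADS2 and FADS1, the desaturases that act in turn on polyunsaturated fatty acids, rose together. FADS2 had 209.2, 182 and 193 CPM in controls against 411 and 362 CPM after co-culture, a log2 fold change of 0.99 (SE 0.0918, edgeR adjusted p = 0.000123). FADS1 had 237, 225 and 229 CPM in controls against 370.0 and 336.5 CPM after co-culture, a log2 fold change of 0.62 (SE 0.0792, edgeR adjusted p = 0.000574). The groups did not overlap for either gene. Their annotated spans overlap on opposite strands of chromosome 11, FADS2 at 61792980 to 61867354 on the plus strand and FADS1 at 61799625 to 61829318 on the minus strand (GRCh38), and the directional counts used here separate them. Reads on the opposite strand made up 6.58% of the reads at FADS2 and 11.2% at FADS1.

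ELOVL6, which elongates saturated and monounsaturated chains, had 34.0, 25.7 and 29.1 CPM in controls against 45.3 and 42.2 CPM after co-culture. Its log2 fold change was 0.56 (SE 0.121, edgeR adjusted p = 0.00692), and without co-cultured replicate 1 the adjusted p was 0.0768. FASN, the fatty acid synthase, had 3931, 2520 and 2905 counts in controls against 3237 and 2381 counts after co-culture. Scaled to the library, control replicate 1 was above both co-cultured libraries, which had 177 and 157 CPM, while the other controls had 139 and 149 CPM, and the log2 fold change was 0.01. Without control replicate 1 the FASN log2 fold change was 0.22 and passed the test (edgeR adjusted p = 0.0112). ACLY, which makes cytosolic acetyl-CoA from citrate, also had control replicate 1 as its highest control, with 155.5, 122.5 and 123 CPM in controls against 167 and 155 CPM after co-culture (log2 fold change 0.27, not called). It was called without control replicate 1, at a log2 fold change of 0.40. ACACA, which makes malonyl-CoA, was counted in 2 entries, 1 of them on a patch of the assembly. Its log2 fold change was -0.10 for the main entry, 0.82 for the patch entry and 0.19 with the entries summed, none of them called. The main entry had 168, 113 and 121 counts in controls against 134 and 90 after co-culture. The patch entry had 64, 24 and 44 counts against 88 and 51, so that the values of ACACA rest on few reads.

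**Figure D2:**
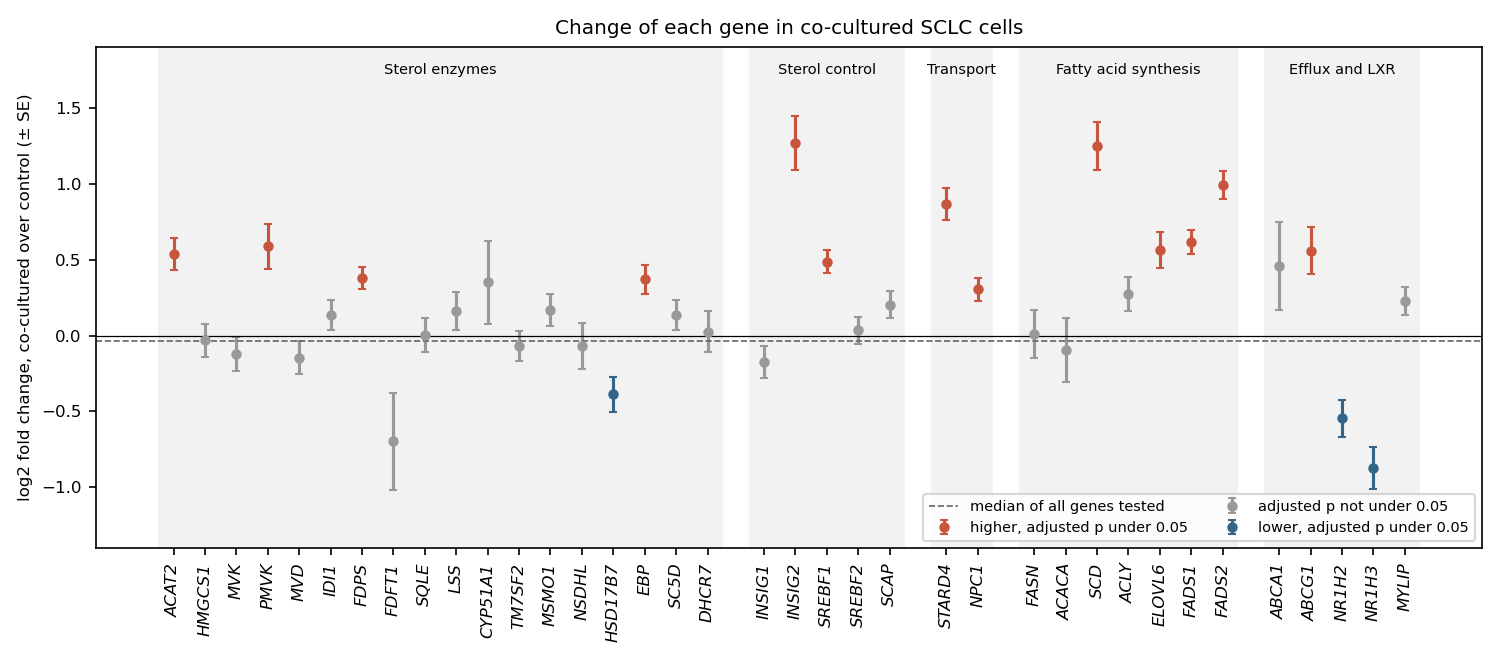
Log2 fold change of each member, co-cultured over control, with bars of 1 SE, ordered by arm and colored by call (dashed line: median of all genes tested, -0.03). SCD and INSIG2 lie beyond 1, NR1H3 lies at -0.87, and 11 of the 18 enzymes of cholesterol synthesis lie within 0.2 of 0.

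Of the 18 enzymes of cholesterol synthesis, 4 rose (ACAT2, PMVK, FDPS and EBP), 1 fell (HSD17B7) and 13 were not called. The share called, 27.8%, was near the 33.4% of all genes tested. The median log2 fold change was 0.08. For 11 of them the log2 fold change was within 0.2 of 0. No enzyme of this arm reached a log2 fold change of 1 in either direction.

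At the head of the pathway, ACAT2, which joins 2 acetyl-CoA, had 43.1, 34.9 and 36.9 CPM in controls against 57.1 and 54.0 CPM after co-culture (log2 fold change 0.54, SE 0.103, edgeR adjusted p = 0.00421). The next enzyme, HMGCS1, the HMG-CoA synthase, had 289.9, 245 and 262 CPM in controls against 286 and 234 CPM after co-culture, and its log2 fold change was -0.03. Its co-cultured libraries thus lay within or just below the range of the controls. MVK and PMVK phosphorylate mevalonate in turn. PMVK was expressed at 13.0, 9.62 and 10.1 CPM in the control libraries and at 16.0 and 16.8 CPM in the co-cultured libraries (log2 fold change 0.59, SE 0.151, edgeR adjusted p = 0.0162), while MVK had a log2 fold change of -0.12 and MVD, which makes isopentenyl pyrophosphate, of -0.15. IDI1, its isomerase, had 0.13. FDPS, which makes farnesyl pyrophosphate, was steady in the control libraries at 84.2, 82.5 and 82.3 CPM and had 110.2 and 105 CPM after co-culture (log2 fold change 0.38, SE 0.0724, edgeR adjusted p = 0.00418). When strand was ignored FDPS was no longer called (log2 fold change 0.14, edgeR adjusted p = 0.266). Without co-cultured replicate 1, the calls of ACAT2, PMVK and FDPS were lost, with adjusted p of 0.056, 0.0852 and 0.0644, and that of PMVK was also lost without control replicate 2 (0.0526) or co-cultured replicate 2 (0.119).

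From squalene to cholesterol, most steps also stayed close to their control level. SQLE, the squalene epoxidase and a rate-limiting step, had 170.1, 134.5 and 136.5 CPM in controls against 152 and 142.5 CPM after co-culture, a log2 fold change of 0.00. LSS, which closes the sterol rings, had a log2 fold change of 0.16, TM7SF2, a sterol reductase, of -0.07, MSMO1, the methyl sterol monooxygenase, of 0.17, NSDHL, which works in the same demethylation, of -0.07, SC5D, the sterol desaturase, of 0.14 and DHCR7, a reductase of the last steps, of 0.03. EBP, the sterol isomerase, rose slightly, from 35.5, 33.0 and 30.4 CPM in the control libraries to 41.7 and 43.5 CPM (log2 fold change 0.37, SE 0.0957, edgeR adjusted p = 0.0162). HSD17B7, the ketosteroid reductase of the pathway, was the enzyme that fell, from 25.4, 26.9 and 29.65 CPM to 22.1 and 19.55 CPM (log2 fold change -0.39, SE 0.114, edgeR adjusted p = 0.0279). The calls of EBP and HSD17B7 were each lost without control replicate 3, without either co-cultured replicate and with the replicate block. That of HSD17B7 was also lost without control replicate 2 or when strand was ignored (edgeR adjusted p = 0.0501).

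The values of 2 enzymes in this arm rest on few reads. FDFT1, the squalene synthase, had 29, 32 and 49 counts in controls against 22 and 18 after co-culture (log2 fold change -0.70, edgeR adjusted p = 0.124). None of its exonic bases are shared on the same strand with another entry, and why its count is low was not tested. It passed the test without control replicate 1 (log2 fold change -0.84, edgeR adjusted p = 0.0371). CYP51A1, the lanosterol demethylase, had 1.44, 1.38 and 1.89 CPM in controls against 1.91 and 2.11 CPM after co-culture (log2 fold change 0.35, not called). Of its exonic bases, 79.4% are shared on the same strand with the entries AC000120.2 and AC000120.3, so that its count is uncertain.

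Among the genes that control the pathway, INSIG2 and SREBF1 rose and their partners INSIG1 and SREBF2 were not called. The share called among these 5 genes was 40.0%, against 33.4% of all genes tested, and their median log2 fold change was 0.20. INSIG2 had 18.1, 19.1 and 26.1 CPM in controls against 59.2 and 42.6 CPM after co-culture, a log2 fold change of 1.27 (SE 0.177, edgeR adjusted p = 0.000862). INSIG1, which shares its role of holding SCAP in the endoplasmic reticulum, had 170.4, 159 and 175 CPM in controls against 166 and 132 CPM after co-culture, a log2 fold change of -0.18 (edgeR adjusted p = 0.225). The co-cultured libraries thus lay above every control library for INSIG2 and within or below the controls for INSIG1. SREBF1 rose from 62.8, 57.3 and 59.65 CPM to 85.4 and 82.6 CPM (log2 fold change 0.49, SE 0.0777, edgeR adjusted p = 0.00166). SREBF2 had 332, 286 and 304 CPM in controls against 319.5 and 309.5 CPM after co-culture, and its log2 fold change was 0.03. SCAP, the escort protein, had a log2 fold change of 0.20 and was not called (edgeR adjusted p = 0.104). Reads on the opposite strand made up 24.5% of the reads at SREBF1 and 35.4% at ACAT2.

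Both transport genes rose, where 18.4% of all genes tested were higher, and their median log2 fold change was 0.58. STARD4, which carries cholesterol between membranes, had 29.1, 29.6 and 32.3 CPM in controls against 60.7 and 49.7 CPM after co-culture (log2 fold change 0.86, SE 0.106, edgeR adjusted p = 0.000455). NPC1, which exports cholesterol from lysosomes, had 64.3, 62.0 and 62.1 CPM in controls against 78.4 and 76.5 CPM after co-culture (log2 fold change 0.30, SE 0.0736, edgeR adjusted p = 0.0124). The NPC1 call was lost without either co-cultured replicate and with the replicate block.

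In the LXR and efflux arm of 5 genes, both receptor genes fell while 1 transporter gene rose. Over all genes tested, 18.4% were higher and 15.0% lower. The median log2 fold change of the arm was 0.23. NR1H3, the gene of LXR alpha, fell from 16.75, 19.5 and 17.8 CPM in the control libraries to 10.7 and 8.92 CPM (log2 fold change -0.87, SE 0.138, edgeR adjusted p = 0.00159). NR1H2, the gene of LXR beta, had 15.6, 16.0 and 15.7 CPM in controls against 10.2 and 11.5 CPM after co-culture (log2 fold change -0.55, SE 0.123, edgeR adjusted p = 0.00885). The control and co-cultured libraries did not overlap for either receptor, and the NR1H2 call was lost without co-cultured replicate 1 (adjusted p = 0.117). ABCG1, a transporter that loads cholesterol onto high-density lipoprotein, had 24.1, 36.2 and 33.1 CPM in controls against 48.5 and 43.0 CPM after co-culture (log2 fold change 0.56, SE 0.154, edgeR adjusted p = 0.0219). That call was lost without co-cultured replicate 1 (adjusted p = 0.184) or 2 (0.0764). ABCA1, the transporter that lipidates apolipoproteins, varied among the controls, with 4.41, 9.95 and 6.20 CPM, and had 8.53 and 10.3 CPM after co-culture, so that its log2 fold change of 0.46 was not called (edgeR adjusted p = 0.253). Without control replicate 2 it was 0.83 and passed (edgeR adjusted p = 0.032). MYLIP, an LXR target that marks lipoprotein receptors for breakdown, had 55.7, 62.4 and 65.0 CPM in controls against 74.7 and 68.4 CPM after co-culture (log2 fold change 0.23, not called).

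Ratios of members within a library do not depend on the scaling between libraries. The pairs were chosen after the values were seen and are given with no test (3 libraries against 2 cannot give an exact permutation p below 0.1). SCD counts per FASN count were 3.33, 5.39 and 6.18 in controls against 12.4 and 9.88 after co-culture. FADS2 per FASN was 1.0, 1.31 and 1.3 against 2.32 and 2.3. INSIG2 per INSIG1 was 0.106, 0.12 and 0.149 against 0.357 and 0.323. For these 3 pairs the lowest co-cultured ratio was above the highest control ratio. SREBF1 per SREBF2 was close to constant within each group, at 0.189, 0.2 and 0.196 in controls against 0.267 and 0.267 after co-culture. STARD4 per HMGCS1 was 0.1, 0.121 and 0.123 against 0.212 and 0.213. ABCG1 per NR1H3 was 1.44, 1.86 and 1.86 against 4.53 and 4.82. The ratio of the 2 LXR genes, NR1H3 per NR1H2, was 1.07, 1.21 and 1.14 in controls against 1.05 and 0.776 after co-culture, and its highest co-cultured value was just under the lowest control value.

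**Figure D3:**
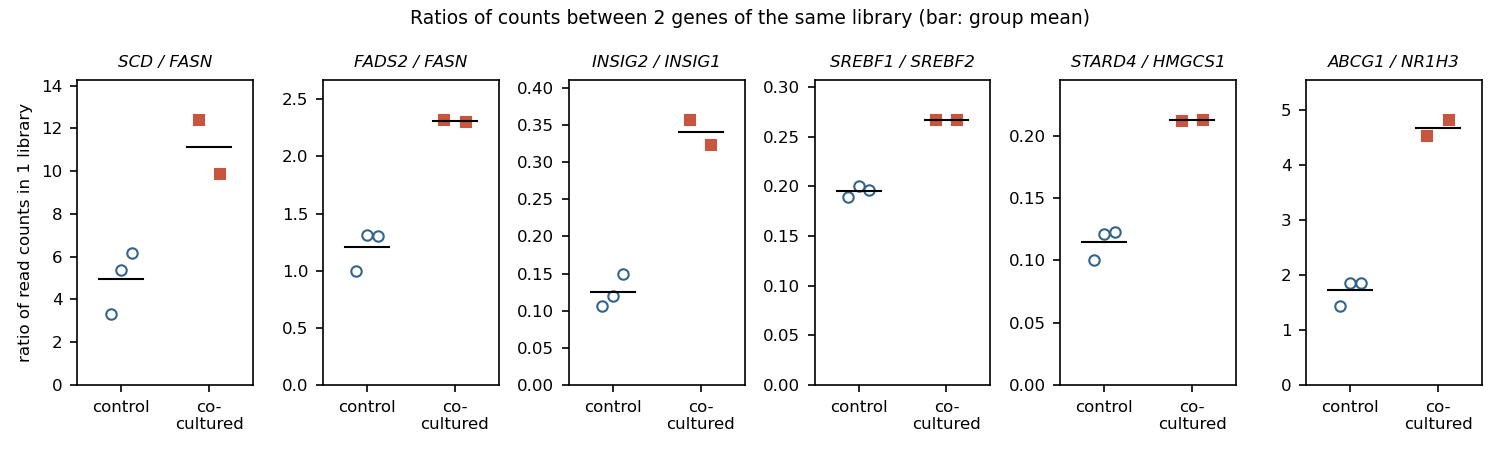
Ratio of the read counts of 2 members within each library, for 6 pairs on linear axes that start at 0, with 1 point for each of the 3 control and 2 co-cultured libraries and a bar at the group mean. SCD per FASN is 3.33 to 6.18 in the control and 9.88 to 12.4 in the co-cultured libraries, and INSIG2 per INSIG1 is 0.106 to 0.149 and 0.323 to 0.357.

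The order of the libraries within a group was also counted over the members. Co-cultured replicate 1 was above co-cultured replicate 2 for 11 of the 13 members that rose and for 19 of the 21 that were not called. Control replicate 1 was the highest control for 9 of the 13 members that rose and for 15 of the 21 that were not called, and it was the lowest control for all 3 members that fell. Control replicate 1 is the library that stood apart from the other controls over all genes. The same orders were not counted over all genes tested, so whether they are particular to the members was not tested.

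Beyond the 37 members, 107 further genes of the same pathways were listed by role, and 91 passed the filter. Of these, 30 were higher and 6 lower, which is 39.6% called against 33.4% of all genes tested, and the median log2 fold change was 0.20. The counts of the single lists below stand beside the same background of 18.4% higher and 15.0% lower. Among 25 tested genes of fatty acid activation, elongation and supply, 11 rose and none fell (median 0.41). The 3 with the smallest p were ACSL1, an acyl-CoA synthetase (log2 fold change 1.02), HACD2, a dehydratase of the elongation cycle (1.08), and ELOVL7, an elongase (0.87). ACSL1 had 77.7, 78.8 and 84.7 CPM in controls against 171 and 156 CPM after co-culture.

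Of 11 genes of SREBP processing, 3 rose and 1 fell (median 0.20). RNF145, a sterol-responsive ubiquitin ligase of the endoplasmic reticulum, had 102, 87.9 and 91.7 CPM in controls against 278 and 283 CPM after co-culture, a log2 fold change of 1.58 (SE 0.0846, edgeR adjusted p = 1.7e-05). LPIN1, a phosphatidate phosphatase, had a log2 fold change of 0.28 and MBTPS1, the protease that makes the first cut in SREBPs, of -0.28. Each of these 2 calls was lost in 3 of the 5 fits that left out 1 library.

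Of 8 tested genes of LXR and efflux, 5 rose and 1 fell (median 0.42). ABCA7, a lipid transporter, had 15.5, 21.1 and 16.4 CPM in controls against 38.3 and 34.9 CPM after co-culture (log2 fold change 1.05, edgeR adjusted p = 0.000591). LPCAT3, an LXR target that puts polyunsaturated chains into phospholipids, had a log2 fold change of 0.64. RXRA, a partner receptor of the LXRs, fell from 10.5, 15.3 and 14.8 CPM to 9.02 and 7.46 CPM (log2 fold change -0.71, edgeR adjusted p = 0.0189), a call that held in 1 of the 5 fits that left out a library.

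Of 23 tested genes of the remaining sterol and isoprenoid steps, 4 rose and 3 fell (median 0.06). Those that rose included CYP27A1, which makes an oxysterol (log2 fold change 0.88), PDSS2, a subunit of the enzyme that makes the side chain of ubiquinone (0.49), and SOAT2, which esterifies cholesterol (0.47). TMEM97, which binds NPC1, fell from 105, 101 and 109.5 CPM to 74.5 and 69.4 CPM (log2 fold change -0.55, edgeR adjusted p = 0.00109). PDSS1, the partner of PDSS2, had a log2 fold change of -0.39, and NPC2, which hands cholesterol to NPC1 in the lysosome, of -0.41. The calls of SOAT2, PDSS1 and NPC2 held in 1 of the 5 fits that left out a library.

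**Figure D4:**
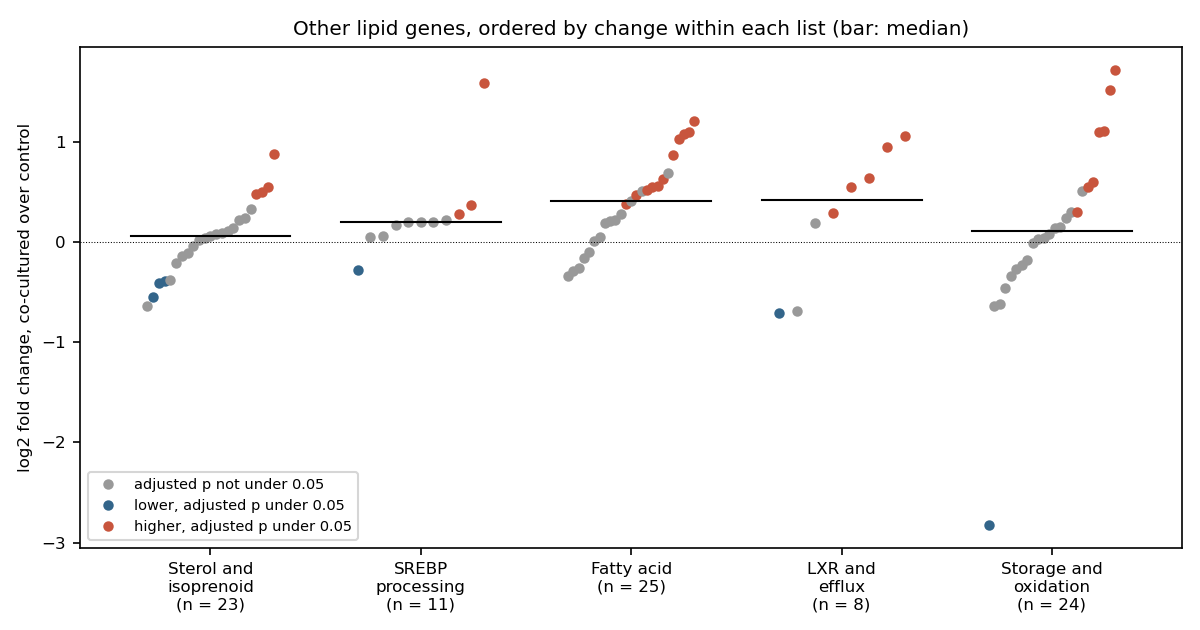
Log2 fold change, co-cultured over control, of each tested gene in 5 lists of further lipid genes, with 1 point for each gene colored by call and a bar at the median of each list. The point at -2.82 in the storage and oxidation list is PLIN5, which had 2 and 1 counts after co-culture. The list of fatty acid genes has 11 higher and 0 lower calls, and that of sterol and isoprenoid genes has 4 higher and 3 lower calls.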

How the data were processed

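Total RNA of the tumor cells was depleted of ribosomal RNA and sequenced as directional libraries. Per the labels, the submitters' processing notes name CASAVA 1.8, STAR 2.6.1b, DESeq2 and GRCh38. The deposited counts are whole reads per gene for each library, in columns for both strands together and for each strand, and the column that holds the sense strand of this directional kit was used. A further deposited table holds the authors' own group means, log2 fold changes and p-values, and only its pairing of gene IDs with names was used. Of the 64837 entries, 58780 are in GENCODE release 29, which gave positions and lengths.

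Genes were tested with edgeR 4.0.16 in R 4.3.3 (filterByExpr, TMM scaling, quasi-likelihood test, 3 control against 2 co-cultured libraries), with Benjamini-Hochberg adjustment over the 20360 genes and a threshold of 0.05. CPM use TMM-scaled library sizes, and SE is the log2 fold change divided by the root of F. The biological coefficient of variation was 10.2%. The SE includes the spread between libraries that the test estimates, while the floor of 3 counts covers counting error only. The script was tested on simulated data. The results were recomputed with DESeq2 1.42.0, with upper-quartile or median-ratio scaling, with looser and stricter filters (1 count in any library, or 10 in every library), with a replicate block, with both strands counted together, and without each library in turn. Summing the entries of ACACA was chosen after seeing the data. All 37 members are named, and of each further list at most the 3 called genes with the smallest p in each direction. Some genes that this rule names are not reported here. Any other gene named was chosen after its values were seen. The members, lists and motifs were chosen with earlier results of these data known.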

Additional observations from a re-analysis of the deposited data

Results flagged for a closer look

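Reads on the strand opposite to 3 members also differed between the groups, in a column of the counts that the comparisons above did not use. They were tested with edgeR over 12653 genes. Opposite SCD there were 10, 10 and 15 counts in controls against 28 and 21 after co-culture (log2 fold change 1.39, edgeR adjusted p = 0.0198). These were only 0.0775% of the reads at SCD. The sense counts of SCD rose with them, from 13085, 13591 and 17939 in controls to 40173 and 23518 after co-culture. Whether the opposite reads come from a separate transcript was not tested. Opposite FADS1 there were 545, 480 and 566 counts in controls against 899 and 652 after co-culture (log2 fold change 0.87, edgeR adjusted p = 0.000892). FADS2, which lies there, is transcribed from that strand and rose itself. Opposite FADS2 there were 291, 227 and 290 counts in controls against 510 and 372 after co-culture (log2 fold change 1.03, edgeR adjusted p = 0.000689).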

How the results depend on the processing

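Limits: there were 2 co-cultured libraries, and leaving out either one lost calls, so that the lone library left was assumed to vary like the controls. Members under 3 CPM (FDFT1, CYP51A1) rest on few counts. Replicate numbers are shared between the groups, but the deviations of same-numbered libraries correlated at -0.114 and -0.067, so the numbers were not taken as pairs. In the fit with the replicate block, control replicate 3 has no co-cultured library of its number and so adds nothing to the comparison. With that block, 11 members were higher and 2 lower. The calls of EBP, NPC1 and HSD17B7 were lost (edgeR adjusted p of 0.127, 0.106 and 0.161). Over all genes, the block gave 2771 higher and 2053 lower. With DESeq2, 13 members were higher and 3 lower. With at least 10 counts in every library, 728 of all genes were up and 552 down by the study's criterion. The lower calls among the further lipid genes, 6 in all, were 10 with upper-quartile scaling, 3 with the replicate block and 3 without regard to strand. Upper-quartile scaling gave medians of 0.126 for the control genes and 0.505 for the transport genes. It turned the log2 fold changes of FASN (-0.062), SREBF2 (-0.0433), SQLE (-0.0725) and DHCR7 (-0.0507), and the block turned those of FASN (-0.0342), SQLE (-0.0389) and DHCR7 (-0.0358). SQLE was -0.00713 with at least 10 counts in every library, HMGCS1 was 0.0278 without regard to strand, and ACACA was 0.186 with its entries summed, none of these called. The cause of these changes was not tested. Without 1 library at a time, members ranged from 6 to 19 higher and 1 to 4 lower, and by the study's criterion from 1 to 4 up and 0 to 1 down. Over all genes, 1749 to 5295 were higher and 985 to 4602 lower. Among the further lipid genes, 18 to 45 were higher and 1 to 12 lower. The median of the transport genes ranged from 0.507 to 0.665. Log2 fold changes near 0 ranged from -0.0935 to 0.218 for FASN, -0.251 to 0.104 for ACACA, -0.0123 to 0.0968 for SREBF2, -0.176 to 0.11 for HMGCS1, -0.0527 to 0.125 for SQLE, -0.00936 to 0.337 for MSMO1, -0.174 to 0.0525 for NSDHL and -0.0414 to 0.177 for DHCR7.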

Other observations

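Of 24 tested genes of lipid storage and oxidation, 7 rose and 1 fell, which is 33.3% called against 33.4% of all genes tested. The median log2 fold change was 0.11. PPARGC1A, a coactivator of mitochondrial genes, had 17.4, 11.2 and 8.81 CPM in controls against 34.5 and 36.8 CPM after co-culture (log2 fold change 1.52, SE 0.224, edgeR adjusted p = 0.00116). MGLL, the monoacylglycerol lipase, and CPT1C, a carnitine palmitoyltransferase of neurons, had log2 fold changes of 1.10 and 0.60. PLIN5, a lipid droplet protein, was the gene that fell, with 7, 19 and 12 counts in controls against 2 and 1 after co-culture, too few for a fold change, and its call held in 1 of the 5 fits that left out a library. HILPDA, a hypoxia-inducible lipid droplet protein named here after its values were seen, had 32.1, 52.2 and 79.7 CPM in controls against 234 and 125 CPM after co-culture (log2 fold change 1.72, SE 0.334, edgeR adjusted p = 0.00442), and its call was lost in 1 of the 5 fits that left out a library.

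Several members are enzymes that use molecular oxygen, a grouping made after the values were seen and given with no test. The 3 desaturases of this kind (SCD, FADS1 and FADS2) rose, with log2 fold changes from 0.62 to 1.25. The 4 sterol enzymes of this kind (SQLE, CYP51A1, MSMO1 and SC5D) were not called, with log2 fold changes from 0.00 to 0.35. The value of 0.35 is that of CYP51A1, whose count is uncertain because 79.4% of its exonic bases are shared. Of all genes tested, 33.4% were called, and sets of 3 and 4 genes are too small to compare with that share.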
